A study of Bos taurus with 170 samples.

Results

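The data described here are the transcriptomes of single blastomeres, the cells of the cleaving embryo, taken from bovine embryos on Day 3 after fertilization in vitro. All cells of the UMI table whose label gave Day 3 as their source were taken, and those with 2000 or more UMI were kept, which kept all but 5 of the 123 Day 3 cells, from 8 embryos, of 170 cells in the series. A UMI (unique molecular identifier) is a random tag on each captured mRNA molecule, by which its PCR copies are recognised and collapsed. The embryos, designated Day3-E1 to Day3-E8, contributed 13 to 17 cells each. They were untreated and were produced from oocytes of slaughterhouse ovaries matured and fertilized in vitro. They had been selected by time-lapse microscopy as lying closest to the timing of first cleavages that the paper linked to high developmental potential. They thus do not stand for all embryos. By the paper's times, Day3-E1, Day3-E5, Day3-E6 and Day3-E7 lay outside the optimal range at each cleavage timed. Day3-E1 reached the last of these cleavages later than any other embryo. Collection was earliest for Day3-E1 to Day3-E4 and latest for Day3-E7 and Day3-E8. The part of these times in the differences between embryos was not tested. The other group of the series, 43 cells with 2000 or more UMI from 6 Day 2 embryos made and selected in the same way, was used only where a Day 3 value needed a reference. The embryo was taken as the replicate for every test between the days, since cells of the same embryo are not independent.

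The early mammalian embryo lives on mRNA and protein stored in the oocyte. During cleavage these maternal transcripts are degraded while the embryonic genome is switched on, a change called embryonic genome activation, which in cattle begins in earnest around the stage sampled on Day 3. Genes of transcription, splicing and ribosomes are typically among those switched on first, whereas transcripts of the zona pellucida, of oocyte factors and of the machinery of meiosis and mitosis are abundant stores of the oocyte. Cells of the same embryo need not pass through this change at the same moment.

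The kept Day 3 cells held 2078 to 108376 UMI on genes, with a median of 24016.5, and the 5 cells left out held 17 to 1608 UMI in total. Between 1274 and 6701 genes were detected in a cell (median 4374), and 90 genes had a UMI in each kept cell. ERCC spike-ins, synthetic RNAs added to every well in equal amount, took a median of 2.28% of the UMI of a cell. Their median share was 1.12% to 1.44% in Day3-E1, Day3-E2 and Day3-E3 and 2.36% to 2.99% in the other Day 3 embryos. Blastomere 16 of Day3-E3 stood apart, because 1366 of its 5543 UMI (24.6%) were ERCC, 1132 of them from the species ERCC-00108, of which the other cells of that embryo held at most 5 UMI. It was also the only cell of its embryo whose cell barcode was used for a cell of another embryo. Of 93 barcodes in the series, 77 marked 2 cells, and 103 of the kept Day 3 cells had such a barcode. The barcodes placed Day3-E1 and Day3-E2 in a set with all Day 2 embryos and Day3-E4 to Day3-E8 in another. Day and barcode set thus overlap. Blastomere 16 of Day3-E3 shared its barcode with a cell of Day2-E1 and so lay outside the set of the Day 2 embryos. The set of its siblings was not settled. Cell titles ended in p1 for Day3-E1 to Day3-E4, in p3 for Day3-E5, Day3-E6 and Day2-E1 to Day2-E4, and in p2 for the other embryos. The meaning of this suffix is not stated, and no Day 2 embryo had p1. Blastomeres 13 of Day3-E3, 11 of Day3-E6 and 16 of Day3-E7 also departed from the cells of their own embryos and are described below; they were chosen after their values were seen. The number of varying genes and the spread of cells within an embryo are also given without the cell concerned.

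The levels of 4 marker genes of Day 3 differed widely between the Day 3 embryos, and Day3-E1 lay closest to the Day 2 embryos. The markers were taken from earlier results of these data, so that their higher level on Day 3 follows from the choice, is given without a test and does not check the label. The unit of level is CPM, for which the UMI of a gene were summed over the cells of an embryo and expressed per 1000000 UMI on genes. In such sums, fewer cells that express a gene and less of its RNA per cell cannot be told apart. KLF4, a zinc finger transcription factor of pluripotent cells, had 207 CPM in the lowest Day 3 embryo, a median of 1470 and 2340 in the highest, against 68.5 to 99.8 in the Day 2 embryos. Every Day 3 embryo lay above every Day 2 embryo, as in 3.98% of all genes tested, while 5.38% had every Day 3 embryo below. The log2 fold change of KLF4 from edgeR's quasi-likelihood fit was 4.33 with a standard error of 0.50. FOLR1, a folate receptor, ranged from 10.0 through a median of 296 to 1121 CPM, against 10.66 to 17.2 on Day 2. FOLR1 differed by 5.43 on the log2 scale, with a standard error of 0.90, but Day3-E1 lay below every Day 2 embryo. IL18, a cytokine gene, ranged from 21.7 through 109 to 314 CPM, against 1.28 to 7.92 on Day 2 (log2 fold change 5.65 with a standard error of 0.79).

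MYC, a transcription factor of growth and proliferation, was the least abundant of the 4. It ranged from 6.66 through a median of 27.6 to 103 CPM in the Day 3 embryos. With 116 UMI on Day 3 and 1 UMI on Day 2, the ratio of its pooled levels was 148, with an exact 95% counting interval of 26.1 to 5901. That interval treats UMI as independent and leaves out the spread between embryos, and 47 of the 116 UMI came from Day3-E6. A MYC UMI was found in 54 of the kept Day 3 cells. In Day3-E6 all 14 cells had at least 1 MYC UMI, and in Day3-E1 2 of 14 did. KLF4 was found in all but 1 of the kept cells, so that detection of KLF4 did not separate the cells of an embryo, but its level did. Within the barcode set that holds both days, which leaves Day3-E1 and Day3-E2 on Day 3, KLF4, FOLR1 and IL18 had log2 fold changes of 3.62, 3.699 and 5.19. Day and title suffix cannot be told apart in that set. Across all genes, edgeR's test, with Benjamini-Hochberg adjustment, called 1712 of 5274 genes (32.5%) between the days, 21.2% higher and 11.28% lower on Day 3. If TMM scaling was left out, the middle gene went from -0.04 to -0.27 on the log2 scale, and 890 genes were called higher and 981 lower.

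In their sums, markers of other cells that a sample could hold were low or no higher on Day 3. Of 5 cumulus markers tested singly, 1 was called higher on Day 3. The 16 of 19 cumulus cell markers in the table had summed levels of 402 to 785 CPM on Day 3 and 637 to 809 CPM on Day 2, with HAS2, a hyaluronan synthase, the most abundant. Of the 12 sperm markers 6 were in the table, SPACA1 was at 0, and the others summed to 2.19 to 18.3 CPM on Day 3. The protamine gene PRM1 was not among the genes analysed here. Oocyte-derived transcripts were present in every Day 3 embryo. The 20 of 36 listed genes in the table summed to 4590 to 18766 CPM, against 19632 to 23304 on Day 2, so the 2 days did not overlap in this sum.

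The most abundant transcripts of Day 3 blastomeres were a mixture of mitotic transcripts already abundant on Day 2 and of transcripts with lower levels there. AURKA, the kinase of the mitotic centrosome, led with 17158 ± 5361 CPM (SD, n = 8), followed by CKS2, a small binding partner of cyclin-dependent kinases, with 8281 ± 3589 CPM. The actin-binding thymosins TMSB4X (7514 ± 4825 CPM) and TMSB10 (4358 ± 2881 CPM) came next. The 25 transcripts with the highest means took 8.49% to 11.11% of the UMI of an embryo, with a mean of 9.68%. The 100 most abundant transcripts of each embryo took 20.3% to 23.9% of its UMI.

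Of these 25 transcripts, 12 were called higher on Day 3 than on Day 2 and 0 lower by edgeR's test, against 21.2% higher and 11.28% lower over all genes. At an unadjusted p under 0.05, 2 were lower, and DESeq2 called 14 higher and 1 lower. Since the 25 were picked for high Day 3 levels, the count and the calls of single transcripts as higher are a description only.

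**Figure D1:**
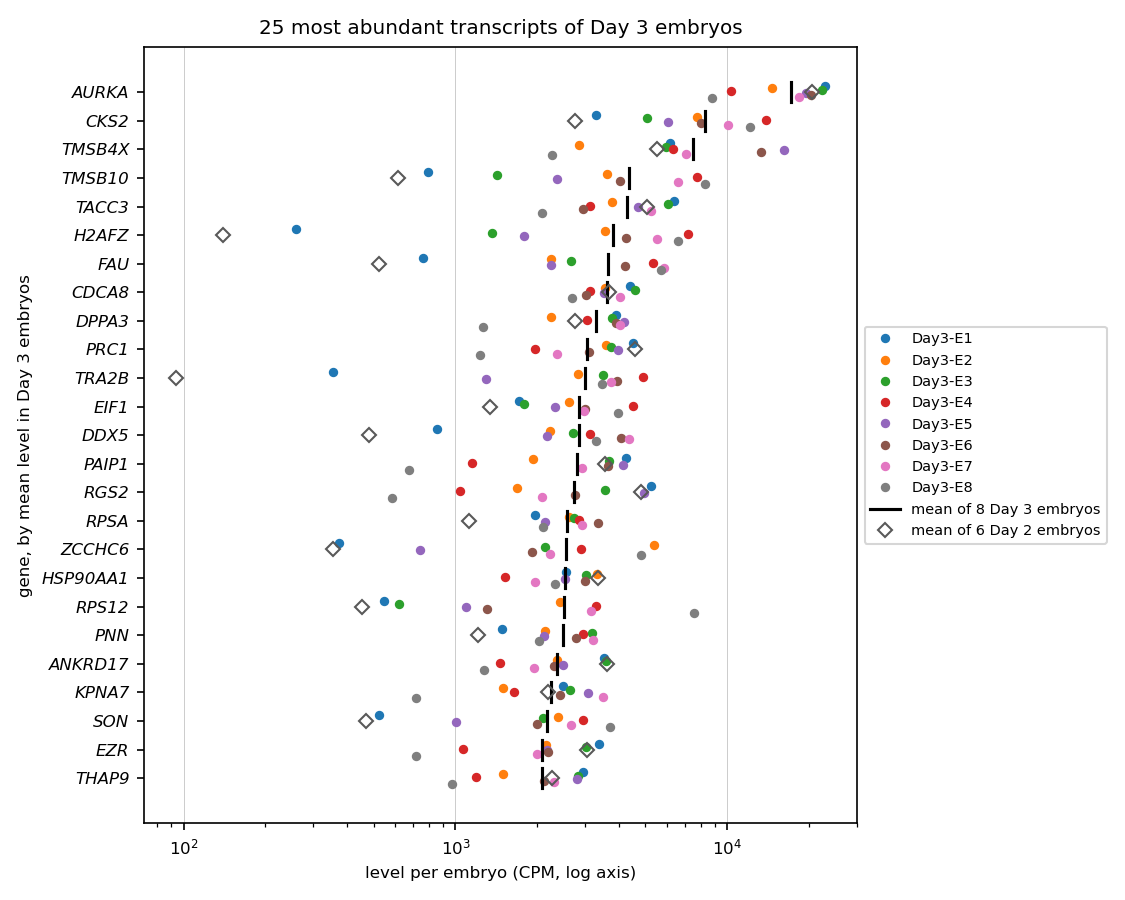
Level in CPM (log axis) of the 25 transcripts with the highest mean in Day 3 embryos; coloured points are the 8 Day 3 embryos, the bar is their mean and the open diamond the mean of the 6 Day 2 embryos. Day3-E1 has the lowest level of 12 of the 25, among them H2AFZ and TRA2B, and Day3-E8 the lowest of another 12, among them AURKA and RGS2.

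Transcripts of mitosis and of the oocyte formed the first group. AURKA ranged from 8760 CPM in Day3-E8 through a median of 18960 to 22866 in Day3-E1, and was the first transcript in 6 embryos, while CKS2 was the first in Day3-E4 and Day3-E8. Its Day 2 mean was 20428 CPM (log2 fold change -0.03, adjusted p = 0.906 by edgeR's test). TACC3, which stabilizes spindle microtubules, PRC1, which bundles microtubules of the central spindle, and CDCA8, a subunit of the chromosomal passenger complex, had means of 4289, 3057 and 3617 CPM and were not called between the days. CDCA8 varied least between embryos, from 2688 to 4580 CPM. Neither were DPPA3, a maternal factor that protects DNA methylation in the zygote (3286 CPM), the oocyte importin KPNA7 (2244 CPM) and RGS2, a regulator of G protein signalling. RGS2 ranged from 582 CPM in Day3-E8 through 2417 to 5235 in Day3-E1, a wider spread than that of AURKA, with the same embryos at the ends. EZR, which links actin to the membrane, PAIP1, a partner of the poly(A)-binding protein, and ANKRD17 and THAP9 also had their lowest values in Day3-E8.

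The second group held transcripts with a lower level on Day 2, not all of them scarce there. TMSB10, for example, had a Day 2 mean of 614 CPM. H2AFZ, the gene of histone variant H2A.Z, ranged from 258 CPM in Day3-E1 through a median of 3882 to 7158 in Day3-E4. On Day 2 it had 114 to 164 CPM (log2 fold change 5.17 with a standard error of 0.66, edgeR). TRA2B, a splicing regulator, ranged from 353 through 3488 to 4902 CPM, against 77.6 to 105 on Day 2 (log2 fold change 5.34 with a standard error of 0.53, edgeR). For both genes every Day 3 embryo lay above every Day 2 embryo, and Day3-E1 lay far below the other Day 3 embryos. TMSB10, FAU, whose product is cut into a ubiquitin-like protein and a ribosomal protein, and ZCCHC6, a terminal uridylyltransferase of RNA now named TUT7, had log2 fold changes of 3.24, 3.161 and 3.24 and were called. The RNA helicase DDX5 and the splicing factors SON and PNN rose by 2.89, 2.58 and 1.33 on the log2 scale. ZCCHC6 reached its highest value, 5391 CPM, in Day3-E2 and not in Day3-E4 or Day3-E8, where H2AFZ and TMSB10 were highest.

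Ribosomal and translation transcripts completed the 25. CKS2, at 2749 ± 470.2 CPM (SD, n = 6) on Day 2, rose by 1.95 on the log2 scale with a standard error of 0.35 (edgeR). With EIF1, a factor of start codon selection, and RPSA and RPS12 of the small ribosomal subunit, it made up the rest of those called. RPS12 ranged from 548 CPM in Day3-E1 through 1867 to 7543 in Day3-E8, while RPSA stayed between 1968 and 3358. HSP90AA1, a cytosolic chaperone, was not called and had a mean of 2528 CPM. All 75 listed ribosomal protein genes together summed to 20550 CPM in Day3-E1 and 65002 CPM in Day3-E8, with a median of 36023. Ribosomal protein genes have near-identical pseudogene copies, so their counts are uncertain where reads could have been split.

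Cells of the same embryo differed in most genes by more than sampling at their depth allows. For each gene the UMI of a cell were compared with the number expected from the gene's share in its embryo and the total of the cell. The sum of squared deviations was then tested against that of multinomial sampling (an index of dispersion test with Benjamini-Hochberg adjustment). The size is given as the excess squared CV, that is the squared coefficient of variation between cells of the same embryo beyond sampling, which is slightly understated because the share is estimated from the same cells. Of 4193 genes with a mean of 1 or more UMI per cell, 3267 (77.9%) passed at an adjusted p under 0.05. The median excess CV was 0.357, while the median CV between the levels of the 8 embryos was 0.433, and the latter was the larger in 64.4% of the genes. An excess above 0 in each of the 8 embryos was found for 670 genes (16.0%).

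The share of genes called rose with their level, from 58.0% at a mean of 1 to 2 UMI to 100% of the 92 genes above 30 UMI, while the median excess squared CV fell from 0.232 to 0.0544. ERCC species, which cannot differ in biology between wells, were tested in the same way against ERCC totals. Of 60 species 37 (61.7%) passed, with a median excess squared CV of 0.0732, against 0.127 over all genes. Set against genes of their own level, the 6 species with a mean of 10 to 30 UMI had a higher median, 0.155 against 0.0688, and the 6 with a mean of 30 or more UMI a lower one, 0.0400 against 0.0544. The test thus also calls RNA that was added in equal amount, and the part of capture in the excess of the genes was not tested. After cells were thinned to a common 10000 UMI, 1028 of 2321 genes passed, and without the single cell that added most to each gene 2496 of 4193 did. The latter setting and those without cells that stand apart were chosen after seeing the data.

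**Figure D2:**
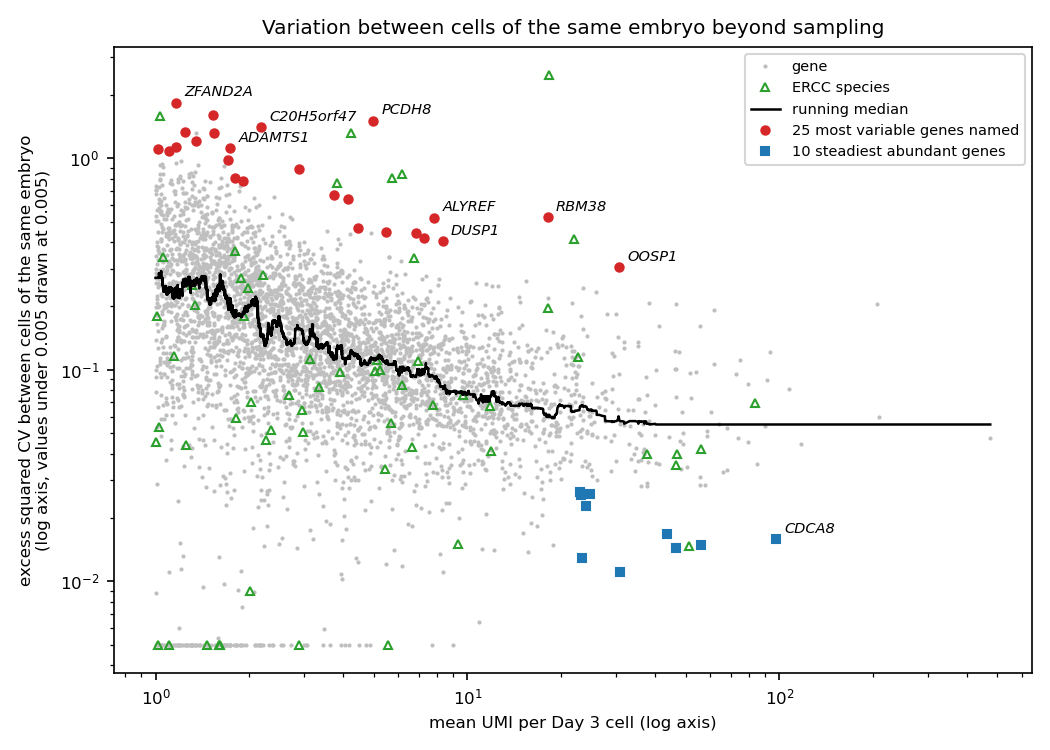
Excess squared CV between cells of the same embryo (log axis) against the mean UMI per Day 3 cell (log axis) for 4193 genes (grey), 60 ERCC species (green triangles), the 25 most variable genes named (red) and the 10 steadiest abundant genes (blue), with the running median over genes of similar level (line). Most named variable genes lie at low levels, whereas RBM38 and OOSP1 stand above genes of their level at means of 18.1 and 30.7 UMI.

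To compare genes of unequal level, the excess squared CV was divided by the running median of the genes nearest in level. The 25 called genes with the highest ratio, among those with an excess in 6 or more embryos, ran from PCDH8 (13.28) to SNHG3 (4.06), just ahead of DLC1 (4.05). Of 24 that could be tested between the days, 19 were called higher and 2 lower on Day 3, with a median log2 fold change of 2.903. Genes scarce on Day 2 passed the minimum of 1 UMI per Day 3 cell only through Day 3, so these counts are a description and are not read against the shares over all genes. Single cells carried much of this ranking. In 14 of the 25 genes 1 cell gave 30% or more of the statistic, which held for 65 of all 4193 genes, and in 16 the cell that added most had fewer than 10000 UMI. In cells with 10000 or more UMI all 25 were still called, but the excess of 13 was over 1.5 times lower. Blastomere 13 of Day3-E5, with 2852 UMI, led 5 of the 25, namely CST3, LXN, CMC2, DHRS11 and TOMM40.

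RBM38, which encodes an RNA-binding protein that regulates mRNA stability, was the clearest of these genes because it was abundant and varied in all 8 embryos. Its level in a Day 3 cell spanned 169 to 766 CPM in Day3-E1, with a median over cells of 315, and 315 to 5748 CPM in Day3-E7, with a median of 1397. In Day3-E5 it spanned 228 to 5961 CPM. The highest cells of Day3-E4, Day3-E5 and Day3-E7 were shallow, with 2407, 2852 and 9394 UMI, and blastomere 7 of Day3-E7 held 54 UMI where 12.9 were expected. Being called was part of the rule that named RBM38, so its p-value is not given. The excess squared CV was 0.5261, 8.78 times the running median. It was 0.308 in cells with 10000 or more UMI. RBM38 tended to be higher in shallower cells, with a correlation of -0.42 between its residual and the log UMI of the kept cells. This lay outside the range from the 5th to the 95th percentile of all genes, -0.19 to 0.21.

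PCDH8, a protocadherin of cell adhesion, had the highest ratio, and its pattern over cells differed between embryos. In Day3-E2 5 of 14 cells had 0 UMI while blastomere 8 held 22 where 2.07 were expected. In Day3-E7 every cell had at least 1 UMI, the median was 4 and blastomere 8 held 33 where 3.94 were expected. In Day3-E8 cells held 2 to 33 UMI with a median of 14. With the p-value left out as for RBM38, the excess squared CV was 1.51 over all cells and 1.33 in cells with 10000 or more UMI. It thus changed little with depth, but it was below 0 in Day3-E1 and Day3-E5. Between embryos PCDH8 ranged from 5.00 to 636 CPM, with a median of 133.

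OOSP1, which encodes an oocyte-secreted protein, was called lower on Day 3 (log2 fold change -1.24 with a standard error of 0.37, edgeR, adjusted p = 0.0177) and varied mainly through 1 cell. Blastomere 13 of Day3-E3 held 286 UMI of OOSP1, whereas the other cells of that embryo led to an expected 49.6. Without the leading cell its excess squared CV fell from 0.307 to 0.0903, close to the running median of 0.0579 but still called.

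**Figure D3:**
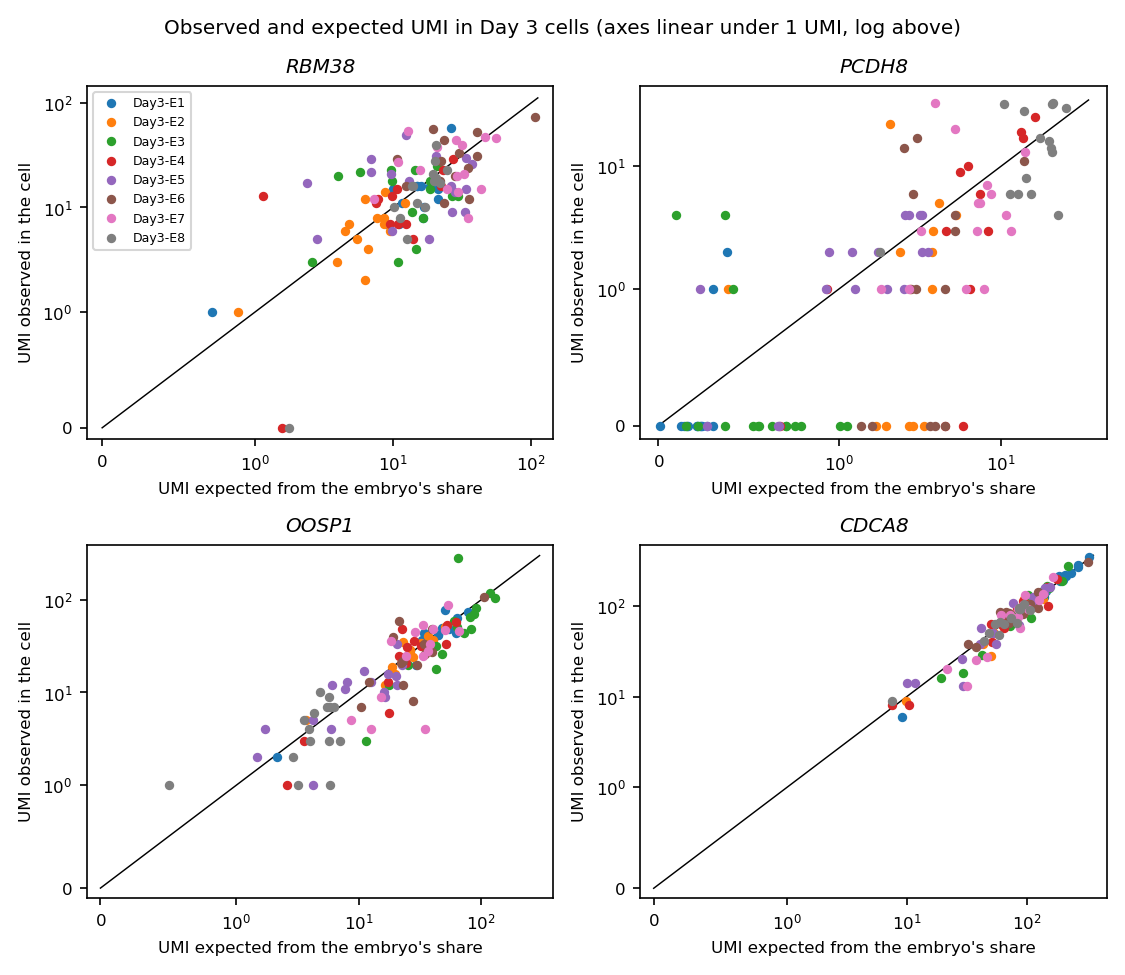
Observed UMI of 4 genes in each kept Day 3 cell against the UMI expected from the gene's share in the embryo and the total of the cell (both axes linear under 1 UMI and logarithmic above; colours mark embryos, the line marks equality). RBM38 and PCDH8 scatter widely on both sides of the line, OOSP1 has 1 cell of Day3-E3 at 286 UMI, and CDCA8 follows the line.

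The other named genes fell into those that kept their excess in deep cells and those that did not. ADAMTS1, a secreted metalloprotease, had an excess squared CV of 1.11 in both settings, HERC2, a ubiquitin ligase, 1.083 and 1.082, and FMR1, an RNA-binding translational repressor, 1.31 and 1.25. CYCT, a cytochrome c, had 0.890 and 0.923, but 49.5% of its statistic came from blastomere 5 of Day3-E6 with 36 UMI. SNAI1, a zinc finger repressor of transcription, had 0.419 and 0.369, CSRNP2 0.449 and 0.390, and the small nucleolar RNA host gene SNHG3 0.466 and 0.415. ZFAND2A, a stress-induced zinc finger gene, had 1.83 and 1.28, DUSP1, an immediate early phosphatase of MAP kinases, 0.406 and 0.280, and CST3, an inhibitor of cysteine proteases, 0.672 and 0.450.

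By contrast, ATP6V0A1, a subunit of the vacuolar proton pump, fell from 1.61 to 0.180, since a cell of 2821 UMI gave 67.0% of its statistic. It was not called without that cell (adjusted p = 0.0880 by the index of dispersion test). LXN, a carboxypeptidase inhibitor, fell from 0.638 to 0.111, C20H5orf47 from 1.397 to 0.531 and ALYREF, an mRNA export adaptor, from 0.524 to 0.230. CMC2, a mitochondrial protein gene, fell from 0.444 to 0.181, and MTA2, a subunit of the NuRD chromatin complex, from 1.33 to 0.338. The homeobox gene CDX1 fell from 0.975 to 0.208, TOMM40, the pore of mitochondrial protein import, from 1.21 to 0.371, DHRS11 from 1.13 to 0.271 and METTL12 from 0.777 to 0.258. C7H19orf43 and C7H19orf53 fell from 0.805 to 0.195 and from 1.11 to 0.668.

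The Day 3 markers varied between cells of the same embryo as well. KLF4 had an excess squared CV of 0.136, 2.38 times the running median, in all 8 embryos, with levels in single cells of 171 to 3262 CPM in Day3-E3 and 1529 to 3755 in Day3-E8. FOLR1 had 0.210 (ratio 2.75) and IL18 0.262 (ratio 2.17). MYC had under 1 UMI per cell on average and was not tested. H2AFZ and TRA2B had ratios of 2.21 and 2.03 and TMSB4X 3.73, whereas AURKA, at 474 UMI per cell, had an excess squared CV of 0.0476 and a ratio of 0.86. Of the 25 most abundant transcripts 12 lay above the running median, against 49.7% of all genes.

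Among the 10 steadiest abundant genes was the co-chaperone DNAJB6, with an excess squared CV of 0.0129. RNPS1 of the exon junction complex, the mitotic cyclin CCNB1, CDCA8, the translation helicase EIF4A1, the zona pellucida gene ZP4, the tubulin TUBA1C, the ubiquitin ligase TRIP12 and the spindle checkpoint gene BUB3 followed, up to 0.0265. The 10 genes were chosen for low values, so no test is given; they held between 0.19 and 0.40 of the running median. TUBA1C shares sequence with other tubulin genes, so its counts are uncertain.

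By gene group, most ribosomal protein genes lay above the running median of their level. Of 72 measured 54 did so, against 49.7% over all genes, and their median ratio to it was 1.37. The share called depends on level, and is given beside that of genes of like level. The lists in this paragraph had median levels of 7.17 to 14.53 UMI, and of all genes 94.4% were called at a mean of 5 to 10 UMI and 99.2% at 10 to 30 UMI. Called ribosomal protein genes numbered 68 of 72. Among 43 splicing genes 38 were called and 29 lay above the running median (median ratio 1.42, led by HNRNPH1 with 2.81). All 12 histone variant genes measured were called and 10 lay above it (median ratio 1.95). Mitotic genes were all called, 30 of 30, but 14 lay above the running median (median ratio 0.93), with CKS1B, a binding partner of cyclin-dependent kinases, highest at 2.91. Oocyte-derived genes behaved likewise, with 17 of 19 called, 7 above it and a median ratio of 0.89.

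The other groups had median levels of 2.53 to 9.39 UMI. Of all genes 78.9% were called at a mean of 2 to 5 UMI and 94.4% at 5 to 10 UMI. Translation factors, chaperones, immediate early and stress genes and pluripotency genes had medians above 5 UMI, and the remaining lists below. Called genes numbered 29 of 33 for translation factors, 27 of 32 for chaperones, 33 of 45 for oxidative phosphorylation, 23 of 30 for DNA replication, 18 of 27 for the proteasome and 10 of 14 for immediate early and stress genes. Their median ratios were 0.86, 0.81, 1.197, 0.77, 0.95 and 1.21. Apoptosis genes had 4 of 6 called (0.97), pluripotency genes 5 of 6 (1.87) and Krüppel-like factors 5 of 5 (2.00), the last 2 lists both holding KLF4. Of the cumulus markers 4 were measured and called, among them COL1A1 with a ratio of 3.07, and of the sperm markers 0 reached 1 UMI per cell.

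Between the days, the same lists had the following counts in the genes tested, against 21.2% called higher and 11.28% called lower over all genes. Ribosomal protein genes were higher on Day 3 in 60 of 71, splicing genes in 29 of 43 with 1 lower, translation factors in 21 of 34 with 1 lower, histone variants in 9 of 14, pluripotency genes in 5 of 7 and Krüppel-like factors in 3 of 5. Oocyte-derived genes were lower in 10 of 19 and higher in 1. Mitotic genes were higher in 8 and lower in 6 of 30, chaperones in 5 and 5 of 32, and DNA replication genes in 6 and 6 of 37. Oxidative phosphorylation genes were higher in 12 and lower in 8 of 56, proteasome genes in 5 and 4 of 28, immediate early and stress genes in 8 and 2 of 18 and apoptosis genes in 2 and 2 of 8. Of 5 cumulus markers tested, 1 was higher on Day 3.

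Cells of the same embryo also differed in how much of their UMI fell on the genes called higher on Day 3. In Day3-E1 this share spanned 14.0% to 17.4% between cells, in Day3-E2 24.2% to 46.4%, in Day3-E3 15.9% to 42.9% and in Day3-E4 36.4% to 61.0%. In Day3-E5 it spanned 19.4% to 45.1%, in Day3-E6 18.8% to 41.2%, in Day3-E7 34.0% to 63.7% and in Day3-E8 40.4% to 62.4%. The ranges of Day3-E1 and Day3-E8 did not overlap. These genes were called on sums of the same cells, so an embryo far from Day 2 has a high share in part through that choice. The shares of embryos and cells are therefore a description only. In Day3-E6 and Day3-E3 the lowest share was that of 1 cell, blastomere 11 and blastomere 13, and without these the shares began at 32.0% and 17.55%. The extreme cell was shallow in several embryos, with 2078 UMI for the highest cell of Day3-E1, 2852 for that of Day3-E5 and 2821 for the lowest of Day3-E8.

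Among cells of 10000 or more UMI, blastomeres 11 of Day3-E6 and 16 of Day3-E7 led the most genes, followed by blastomeres 8 and 13 of Day3-E7 with 93 and 76. Blastomere 11 of Day3-E6, with 35750 UMI, gave the largest part of the statistic for 153 of 4193 genes, against a median of 32 genes per cell. It held 18.8% of its UMI on genes called higher on Day 3, where the median of its embryo was 36.9%. It had 6 UMI of TRA2B where 152 were expected from the other cells, 9 of KLF4 where 73.9 were expected, 0 of DDX39A where 24.1 were, and 1293 of AURKA where 682 were. Blastomere 13 of Day3-E3, with 23583 UMI, led 66 genes and held 15.9% of its UMI on genes called higher on Day 3. It had 6 UMI of TRA2B against 87.6 expected, 1 of H2AFZ against 34.2, 5 of KLF4 against 28.5 and 728 of AURKA against 514.

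Blastomere 16 of Day3-E7 departed in the other direction. With 21565 UMI it led 126 genes and held 58.1% of its UMI on genes called higher on Day 3, against a median of 38.1% in its embryo, where blastomere 3, with 7899 UMI, held 63.7%. It had 31 UMI of RPS27 where 5.17 were expected from the other cells, 33 of RPS19 where 6.145 were, 46 of KLF4 where 27.1 were and 213 of AURKA where 411 were. OOSP1 had 4 UMI where 36.9 were expected. Without these 3 cells, 3170 of 4203 genes were called for variation, and without blastomere 16 of Day3-E3, the cell rich in ERCC, 3300 of 4212.

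Day 3 cells of the same embryo differed more from each other than Day 2 cells did. Over the genes with a mean of 5 or more UMI per cell in every embryo (514), the median excess squared CV was 0.0235 in Day3-E1, 0.0342 in Day3-E2, 0.0387 in Day3-E3 and 0.0561 to 0.0958 in Day3-E4 to Day3-E8. In the 6 Day 2 embryos it was 0.0149 to 0.0217. The groups did not overlap, with a Day 3 mean of 0.0576 ± 0.0241 (SD, n = 8) against 0.0170 ± 0.00254 (SD, n = 6) for Day 2 (p = 0.000666, two-sided exact permutation test over embryos). The understatement of the excess is larger in embryos with fewer cells, such as those of Day 2. In cells thinned to 10000 UMI the means were 0.0403 and 0.0217 over 87 genes (p = 0.0440, two-sided exact permutation test).

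The same median over 10 ERCC species was also higher on Day 3. It was 0.0590 ± 0.0891 (SD, n = 8) for Day 3 and 0.00865 ± 0.00545 (SD, n = 6) for Day 2 (p = 0.0206, two-sided exact permutation test), and Day3-E3 held the highest value, 0.275. Without blastomere 16 of that embryo the Day 3 mean was 0.0259 (p = 0.0493, same test). Among Day 3 embryos, Day3-E2, Day3-E6 and Day3-E8 had ERCC values of 0.0157, 0.00542 and 0.00816, inside the Day 2 range of 0.00288 to 0.0172, with gene values of 0.0342, 0.0712 and 0.0561. Day3-E3, with a gene value of 0.0387, had an ERCC value of 0.0104 without blastomere 16, also inside that range. Day3-E1, Day3-E4, Day3-E5 and Day3-E7 lay above that range, with ERCC values of 0.0318, 0.0536, 0.0328 and 0.0494. Their gene values were 0.0235, 0.0677, 0.0738 and 0.0958. Within the barcode set that both days share, Day3-E1 and Day3-E2 lay above all 6 Day 2 embryos, and the difference was 0.0142 (p = 0.0714, exact permutation test, the smallest value that 2 embryos against 6 allow). The part of capture, of barcode set and of title suffix in the difference between the days was not tested. For Day3-E4 to Day3-E8 day and barcode set cannot be told apart. Nor can day and title suffix for Day3-E1 and Day3-E2 in the shared set.

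**Figure D4:**
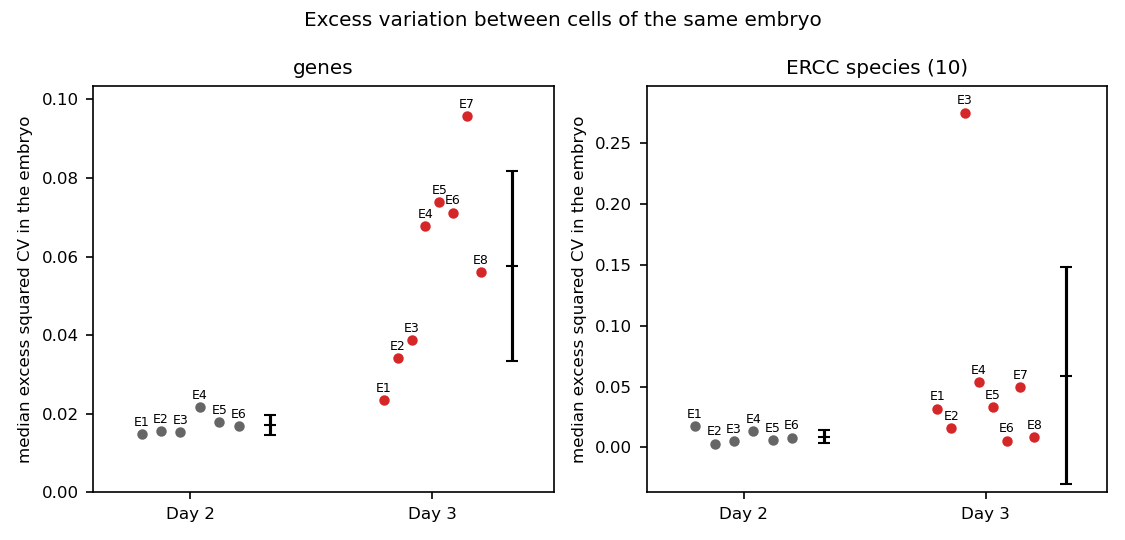
Median excess squared CV between cells of the same embryo, per embryo, over 514 genes (left) and 10 ERCC species (right); grey points are Day 2 and red points Day 3 embryos, and the bars show the mean and SD of each day. All 8 Day 3 embryos lie above the Day 2 embryos for genes. For ERCC Day3-E3 stands apart at 0.275, Day3-E2, Day3-E6 and Day3-E8 lie among the Day 2 embryos, and the remaining Day 3 embryos lie above them.

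Genes that varied within embryos did so in recurring combinations, in which AURKA and RGS2 stood on one side and KLF4, SLC2A3 and several RNA-processing genes on the other. For 1336 genes with a mean of 5 or more UMI per cell, the deviation of each cell from the expected UMI, scaled by its sampling and excess variance, was correlated between genes over the 13 to 17 cells of an embryo. The 8 correlations of a pair were then averaged by Fisher's z. The cells share their library, and all values are shares of a cell's total, so depth and the total enter every pair; the correlations are therefore a description, without p-values. Over 891780 pairs the 1st, 50th and 99th percentiles of the mean correlation were -0.32, 0.001 and 0.36. Pairs above 0 in all 8 embryos numbered 11844 (1.33%) and pairs below 0 in all 8 numbered 12279 (1.38%). A mean of 0.5 or more with the same sign in all 8 embryos was found for 485 pairs, and one of -0.5 or less for 121.

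RGS2 was in 7 of the 15 pairs with the highest mean correlation. AURKA and RGS2 had correlations of 0.53 in Day3-E1 to 0.84 in Day3-E3, with a mean of 0.72. RGS2 also went with HMGN2, a nucleosome-binding protein (0.69), NUSAP1, a spindle protein (0.68), MSX1, a homeobox gene (0.68), LOC100336984 (0.68), SLBP2, the oocyte stem-loop binding protein of histone mRNA (0.67), and ZC2HC1A (0.67). In these 7 pairs Day3-E1 had the lowest correlation of the 8 embryos.

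A second set of pairs joined genes that were called higher on Day 3. EIF3A, the largest subunit of a translation initiation factor, and ZCCHC6 had a mean of 0.75, from 0.11 in Day3-E1 to 0.91 in Day3-E6. RBBP6, a ubiquitin ligase that binds RB, went with ZCCHC6 (0.71) and with EIF3A (0.68). KLF4 went with the glucose transporter SLC2A3 (0.67) and RBM38 with the elongation factor SUPT4H1 (0.66). EIF5A with LMO4 (0.66) and FAU with TMSB10 (0.66) came next after the 15. The highest 2 pairs of all, LOC780876 with MAD2L1 (0.80) and LOC788736 with PAIP1 (0.76), may each share reads between near-identical copies and are uncertain.

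Each of the 10 pairs with the lowest mean correlation joined a gene called higher on Day 3 with one that was not. AURKA was in 5 of the 10 lowest pairs. Its mean correlation was -0.62 with KLF4, from -0.85 in Day3-E3 to -0.14 in Day3-E1, -0.62 with SLC2A3, -0.62 with EIF5A, a translation factor, -0.60 with HNRNPF and -0.59 with HNRNPA1, both splicing proteins. In Day3-E3, AURKA spanned 15129 to 30870 CPM between cells. The cell with the highest AURKA level, blastomere 13, had 212 CPM of KLF4, and the cell with the lowest, blastomere 11, had 2790. The lowest pairs also held RGS2 with RNF11 (-0.61), DYNC1I2, a dynein subunit, with the co-chaperone PTGES3 (-0.60), H2AFZ with LEO1, a subunit of the PAF1 elongation complex (-0.60), and the RNA helicase DDX39A with ZC2HC1A (-0.59). With the 3 cells that stand apart left out, AURKA and KLF4 had a mean of -0.59 and AURKA and RGS2 one of 0.67.

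**Figure D5:**
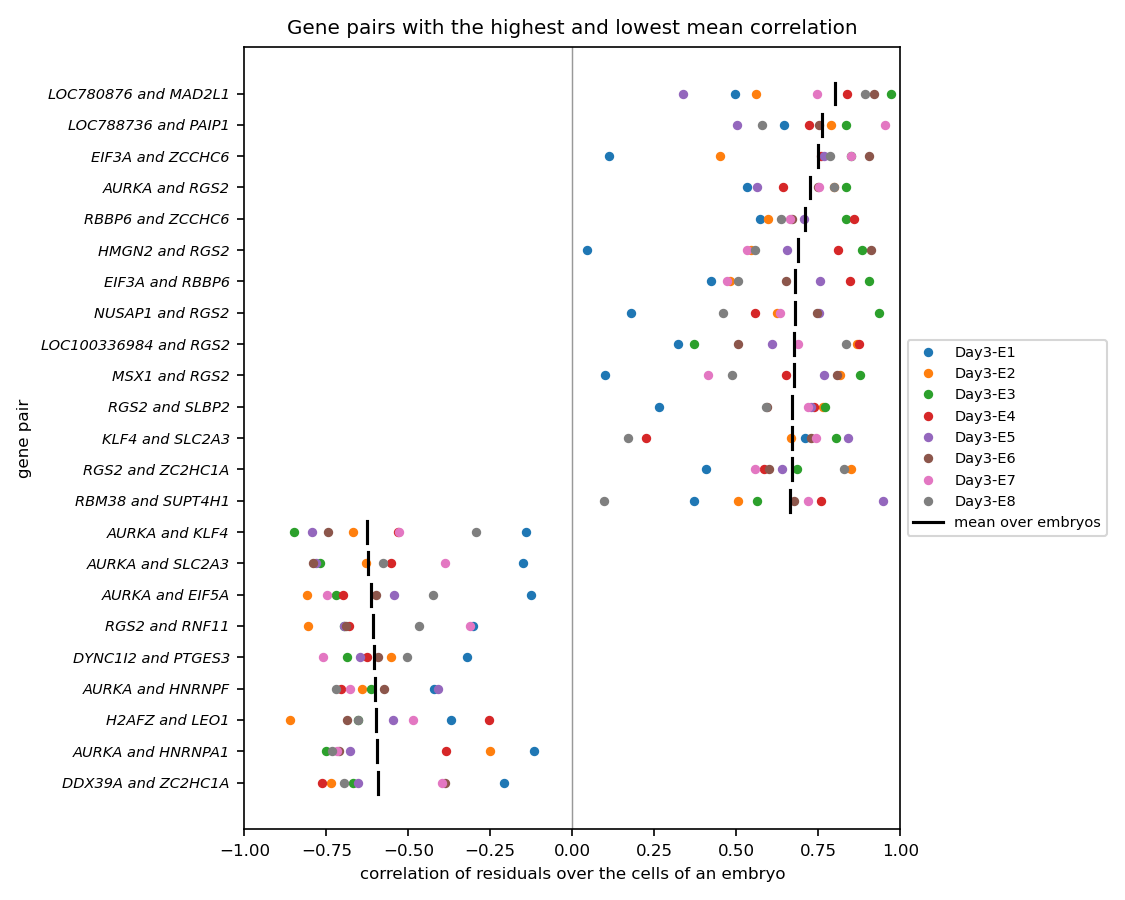
Correlation between cells of the same embryo for 14 of the 15 gene pairs with the highest and 9 of the 10 with the lowest mean correlation, each with the same sign in all 8 embryos; coloured points are embryos and bars the mean over embryos. Values of the highest pairs span 0.04 to 0.97 and those of the lowest -0.86 to -0.12, with Day3-E1 often nearest to 0.

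Among gene groups, ribosomal protein genes went together most. The median over the 1711 pairs of 59 genes was 0.22, against 0.001 over all pairs, and it was above 0 in each of the 8 embryos, from 0.07 in Day3-E5 to 0.28 in Day3-E8. RPLP1, RPS18 and RPL26 had the highest medians with the other members, 0.34 each. Oocyte-derived genes had a median of 0.17 over 105 pairs and splicing genes 0.11 over 561, both above 0 in all 8 embryos, and the 8 immediate early and stress genes had 0.13 over 28 pairs. ZP4 had the highest median among the oocyte-derived genes, 0.28, and the kinase gene AURKC the lowest, 0.01. Mitotic genes did not go together, with a median of 0.01 over 253 pairs. AURKA itself had a mean of 0.22 with CDCA8, -0.05 with CCNB1 and -0.39 with CKS2, the last ranging from 0.55 in Day3-E1 to -0.76 in Day3-E5.

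Histone variants had a median of -0.11 over the averaged correlations of 28 pairs, and of -0.045 by rank (Spearman) correlation. Their medians within single embryos ran from -0.10 to 0.165 and were above 0 in 4 of 8. The medians of other groups were nearer to that of all pairs, namely oxidative phosphorylation (0.07), DNA replication (0.04), translation factors (0.03), chaperones (0.02), the proteasome (0.01) and the 3 pluripotency genes (-0.01). Between groups, ribosomal with splicing genes had a median of 0.11, above 0 in all 8 embryos, and splicing with oocyte-derived genes one of -0.12, below 0 in all but Day3-E1. The 494 measured genes called higher on Day 3 had a median of 0.08 among themselves and the 129 called lower one of 0.11. Pairs of a higher with a lower gene had a median of -0.08, below 0 in all 8 embryos, from -0.13 in Day3-E2 and Day3-E3 to -0.02 in Day3-E1.

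The genes most correlated with the abundant variable genes were then read out. RBM38 went with ALYREF (0.70), SUPT4H1 (0.66) and KLF4 (0.64), although with ALYREF the correlation was 0.99 in Day3-E4 and near 0 in Day3-E3 and Day3-E8, and the mean was 0.48 in cells with 10000 or more UMI. ALYREF was further close to HNRNPH1 (0.52) and ARRDC2 (0.52), which were 0.29 and 0.21 in those deeper cells. OOSP1 went with SEC61B, a subunit of the translocon (0.57), TMSB4X (0.56) and SNRPF, a core splicing protein (0.55), and these became 0.47, 0.38 and 0.43 without the 3 cells that stand apart. DUSP1 went with IRF3 (0.49) and TOB1 (0.49), and CMC2 with H2AFZ (0.51), RPL13 (0.51) and SF1 (0.48). In cells with 10000 or more UMI these were 0.40, 0.39, 0.44, 0.27 and 0.40. Among the markers, KLF4 went with SLC2A3 (0.67) and RBM38 (0.64), and FOLR1 with RPL34 (0.46), SLC25A28 (0.46) and CAND1 (0.45). In the deeper cells the values were 0.62 and 0.58 for KLF4, and 0.35, 0.38 and 0.30 for FOLR1. KLF4 and FOLR1 themselves had a mean of 0.25, from -0.28 in Day3-E8 to 0.58 in Day3-E7.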

How the data were processed

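Single blastomeres were collected by hand, lysed and sequenced by SCRB-Seq, a 3' tag method with cell barcodes and UMI. Per the study's methods, reads were mapped by the authors with STAR 2.5.2b at default parameters to Bos tau7 (UCSC) and the ERCC sequences, and UMI were counted per gene with the Drop-seq pipeline. The deposited table of raw UMI counts (10772 genes and 92 ERCC species) was used, and the deposited normalised table was not. Counts of a 3' tag do not depend on transcript length, but low capture leaves many zeros, and intervals cover counting error only. No doublet caller was run, since each well received 1 picked cell.

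UMI were summed per embryo and compared between the days with edgeR 4.0.16 (quasi-likelihood, TMM scaling, 14 embryo sums). Nothing states that embryos came from separate fertilization batches, so p-values measure the spread between these embryos. Variation between cells of the same embryo was tested by an index of dispersion on genes with a mean of 1 or more UMI, correlation was computed on genes with a mean of 5 or more, and both were tested on simulated data. Python 3.11.15, numpy 2.4.6, scipy 1.17.1, pandas 2.3.3, matplotlib 3.10.9 and, as an alternative, DESeq2 1.42.0 were used.

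Genes are named as the 25 of highest mean level, the 25 called genes of highest ratio to the running median with excess in 6 or more embryos, the 10 of lowest excess among the 200 genes of highest mean UMI, the 15 highest and 10 lowest correlations of 1 sign in 8 embryos, the 3 nearest genes of the first 5 variable genes with a mean of 5 or more UMI, and members of the marker and pathway lists. The genes next in rank, further pairs with AURKA, KLF4 or FOLR1 and the genes given for the 3 cells that stand apart were chosen after their values were seen. A few genes that these rules name are not reported here. The cells, rules and lists were chosen with earlier results of these data known.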

Additional observations from a re-analysis of the deposited data

Results flagged for a closer look

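In 22 of 96 sets of 1 value per embryo, the highest or lowest embryo lay further from the others than Dixon's 95% limit allows. Chance gives about 1 in 20, but many of the sets belong to genes or pairs chosen for extreme values. The count therefore cannot be read against that rate. Among them were the levels of RPS12 in Day3-E8 (7543 CPM) and of MYC in Day3-E6 (103 CPM).

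Of the 22, 15 concerned the excess squared CV of a named variable gene in 1 embryo. These genes were chosen for a high excess, which 1 cell often carried, so the number cannot be read against chance. In all, 8 of the 22 lay in Day3-E5. These were CST3 at 2.09, FMR1 at 4.51, LXN at 8.06, DUSP1 at 2.78, CMC2 at 4.40, DHRS11 at 11.37, TOMM40 at 13.81 and METTL12 at 12.4. In Day3-E3 PCDH8 reached 20.4, where blastomere 16, the cell rich in ERCC, held 4 UMI against 0.0984 expected and 13 of the 16 cells held 0, and OOSP1 reached 0.797. MTA2 stood at 67.2 in Day3-E1, where a cell of 2078 UMI held 1 UMI against 0.0069 expected. C20H5orf47 stood at 49.3 in Day3-E4, where a cell of 2407 UMI held 3 against 0.036 expected. ATP6V0A1 stood at 32.8 in Day3-E8 (4 UMI against 0.0581 expected in a cell of 2821 UMI), CDX1 at 25.02 in Day3-E2 (3 UMI against 0.0565 expected in a cell of 2776 UMI) and CYCT at 4.05 in Day3-E6. Among the steadiest genes RNPS1 had 0.0581 in Day3-E6 and TUBA1C 0.140 in Day3-E8.

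The other cases were the correlations of HMGN2 with RGS2 (0.044) and of RGS2 with SLBP2 (0.26), both lowest in Day3-E1, and the median excess squared CV of ERCC species in Day3-E3 (0.275).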

How the results depend on the processing

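Over all alternatives, 105 of the main values stayed the same, 4 counts moved by over 1.5 times and 1 fell below the threshold. For a test, the same means an unchanged direction and side of the threshold, and for a count a change of at most 1.5 times. For a level or a correlation it means a change smaller than the SD over embryos. The tests include those of the 4 markers, whose result follows from their choice. The count of genes called between the days was 806 with the embryo number as a replicate block (599 higher and 207 lower) and 351 of 6193 within the first barcode set (327 higher and 24 lower). The numbers do not pair the embryos, as the deviations of same-numbered embryos had correlations of -0.13 to 0.03. Genes called for variation numbered 1028 of 2321 in cells thinned to 10000 UMI and 1296 of 1336 at a mean of 5 or more UMI, where fewer genes were tested. The difference in median excess squared CV between the days was 0.0142 within the first barcode set, with 2 embryos on Day 3. Day and title suffix coincide in that set. In thinned cells the excess squared CV of DNAJB6 (-0.000602) and TRIP12 (-0.00794) fell below 0, and the cause was not tested. Of values for single genes, pairs and lists, 1750 stayed the same by these rules, 70 lost the threshold, 2 reversed and 1 moved. With 1 embryo left out at a time, 1327 to 2163 genes were called between the days and 2930 to 3308 for variation. The log2 fold changes were 4.06 to 4.50 for KLF4, 4.90 to 5.62 for FOLR1, 5.25 to 5.82 for IL18 and 6.63 for MYC, which passed the filter in 1 of those fits. The difference in excess was 0.0357 to 0.0461, the 99th percentile of correlation 0.356 to 0.381 and the share of the 25 transcripts 9.49% to 9.88%. The barcode set and single-cell exclusions were chosen after seeing the data. Depth limits genes under 1 UMI per cell, which were not tested for variation, and 15 Day 3 cells had fewer than 10000 UMI.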
